A study of Sus scrofa with 12 samples.

Results

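Described here, peak by peak, is how the OAA libraries labelled input differed from the CON libraries with the same label in an m6A mapping experiment on pig cells. It uses 6 of the 12 libraries of the series, 3 a side: CON libraries 1 to 3 and OAA libraries 1 to 3. All 25055 merged peaks of the deposited count table were taken, each once, and 132 of them held no read in any of the 6 libraries. The peaks came to 29011 table entries because a peak is listed again for each gene it touches, and 21450 peaks lay under 1 gene and 3605 under several. After the filter on low counts, 24835 peaks were tested.

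All groups used IPEC-J2, a line of pig small-intestinal epithelium, labelled wild type. They received 0 µM OAA (CON) or 25 µM OAA (OAA) for 24 h in serum-containing DMEM/F12 medium with penicillin and streptomycin. The compound is given in the labels by its abbreviation, and the series title names 2-oxindole-3-acetic acid. Replicates were numbered 1 to 3, all samples carried the same batch label, and no label says that the cultures were grown apart, so p-values reflect the scatter among these libraries alone, which may be technical. The cells are 1 established line, and its response to a dissolved compound is all that these groups model.

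N6-methyladenosine, m6A, is a methyl mark on adenosines inside mRNA. A writer complex built around METTL3 and METTL14 places it, the erasers FTO and ALKBH5 remove it, and reader proteins such as YTHDF2 bind marked transcripts and in the case of YTHDF2 speed their decay. In MeRIP-seq, an m6A antibody pulls down marked RNA fragments for sequencing, and the input, taken before the pull-down, follows transcript level. The series title places YTHDF2 and PSMD3, a proteasome subunit, in the setting of obesity-related lipid storage.

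Which kind of fragment these 6 libraries hold is not settled by the sources. They are labelled input, but they held more reads than the libraries labelled IP in most peaks, 98.3% of those with reads in CON and 97.3% in OAA. The log2 ratio in the authors' deposited table, given per treatment and peak, tracked the ratio of labelled input to labelled IP (r = 0.996 in both treatments) across peaks, which share libraries and are not independent replicates. Groups are named by their labels throughout. Swapping the labels would leave every OAA against CON value below as it is, while transcript level and antibody-bound fragments cannot be told apart as the quantity measured.

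Reads counted in peaks ranged from 16.5 to 23.0 M for CON and from 19.0 to 21.5 M for OAA, with the lowest total in CON library 2. Levels are given as CPM, counts scaled to one common total of reads in peaks with TMM factors, as the mean ± SD over 3 libraries. In a principal component analysis the first component, 24.9% of the variance, put the CON libraries on the positive side and the OAA libraries on the negative side. The next component, 21.0%, set OAA library 3 (50.1) apart from the other 5 (-21.2 to 3.87). The epithelial identity of the cells was read from the deposited FPKM (fragments scaled by transcript length and depth), whose library codes belong to the libraries labelled IP: EPCAM, an epithelial adhesion protein, stood at 196 FPKM, CDH1, the E-cadherin gene, at 129, and KRT8, a keratin of simple epithelia, at 396. All 7 epithelial markers in that table reached 1 FPKM, against 1 of 6 enterocyte, 1 of 4 goblet cell, 0 of 6 fibroblast, 0 of 5 leukocyte and 3 of 3 endothelial markers. The lowest epithelial markers, CLDN3 and CLDN7, stood at 2.01 and 2.09 FPKM. Sucrase-isomaltase (SI), a defining enzyme of mature enterocytes, stood at 12.8 FPKM but had no peak of its own, MUC2 of goblet cells and PTPRC of leukocytes were listed at 0, and the endothelial genes CDH5, PECAM1 and KDR lay between 1.15 and 3.78 FPKM. The summed CPM of the 5 epithelial markers with an own peak ranged from 3939 to 4239 in CON and from 3955 to 4138 in OAA, and that of the 3 endothelial markers from 76.4 to 81.5 and from 71.6 to 87.0, so neither list separated the groups. Most of the epithelial sum came from CLDN4 (mean 3497 CPM) and most of the endothelial sum from CDH5 (mean 61.0 CPM).

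No peak passed the test between OAA and CON. With edgeR's quasi-likelihood test and Benjamini-Hochberg adjustment over all 24835 peaks, 0 peaks (0.0%) had an adjusted p under 0.05, and the smallest adjusted p was 0.0811. An unadjusted p under 0.05 was reached by 1292 peaks (5.2%), 693 of them higher in OAA (2.79%) and 599 lower (2.41%). The 3 OAA values lay entirely above or entirely below the 3 CON values in 2765 peaks (11.1%), above in 1394 (5.61%) and below in 1371 (5.52%). The median log2 difference over all peaks was 0.003, and the median size of the difference, whatever its sign, was 0.13. DESeq2, run on the same counts, called 2 peaks, and limma-voom called 0 with 1360 at an unadjusted p under 0.05.

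**Figure D1:**
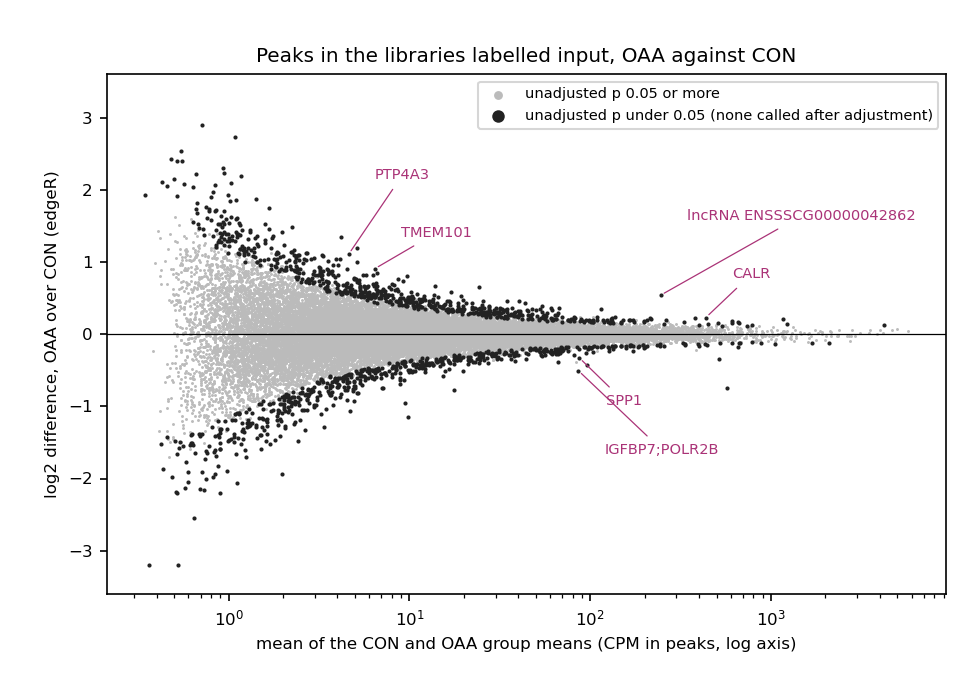
Each point is 1 of the 24835 tested peaks, with its mean level in CPM on a log axis and its edgeR log2 difference of OAA over CON on the vertical axis. Dark points have an unadjusted p under 0.05 and none passed after adjustment. The cloud is widest below 1 CPM and narrows as the level rises, and GPR162, at -6.84, lies outside the drawn range.

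How closely a difference could be measured depended on the level of the peak. The 95% interval of the log2 difference reached 0.42 to either side in the median peak. Below 1 CPM that median was 1.29 over 1216 peaks, and above 100 CPM it was 0.15 over 2187 peaks. In counts simulated for this comparison over the same 24835 peaks, the test recovered 64% of 100 changes of 1.5-fold and 89% of 100 changes of 2-fold, all placed in peaks of at least 5 CPM, with 10 false calls. Both sets of changes were planted together, which eases the adjusted threshold. These shares therefore do not give the recovery where few or no peaks differ, or below 5 CPM. Of the 16023 real peaks at 5 CPM or more, 8 had a log2 difference of 1 or more in size, and 95% of them lay within 0.37 of 0. The share of peaks at an unadjusted p under 0.05 was 9.79% below 1 CPM and between 4.74% and 5.31% in the 4 higher classes of level.

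The smallest p belonged to a long noncoding RNA without a symbol, ENSSSCG00000042862, in a peak at chromosome 15, 66866625 to 66867074. Its level was 193, 194 and 211 CPM in CON and 232, 315 and 323 CPM in OAA. All OAA values lay above all CON values, with OAA library 1 nearest to the controls. The means were 199.7 ± 9.90 and 290.1 ± 50.3 CPM, a log2 difference of 0.54 ± 0.09 (SE; edgeR adjusted p = 0.0811). DESeq2 called this peak (adjusted p = 0.00239), and so did edgeR without OAA library 1, where the log2 difference was 0.68 (adjusted p = 0.000136). Over all other edgeR and limma settings without a replicate term the adjusted p ran from 0.0780 to 0.886.

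The same peak also had the higher OAA level in the libraries labelled IP. It stood there at 195.4, 256 and 195.1 CPM in CON and at 393, 409 and 236 CPM in OAA, so the groups overlapped through OAA library 3 and CON library 2. The log2 difference in those libraries was 0.68 ± 0.13 (SE; edgeR adjusted p = 0.0841), and the edgeR test of the difference between the labels gave an adjusted p of 0.999. In the libraries labelled IP as a whole, 1 of 20098 peaks was called (0.00498%), a 5′ UTR peak of the retroviral gene symbol env (0.44 ± 0.07, adjusted p = 0.0341; 0.11 ± 0.10 in the libraries labelled input), and 779 had an unadjusted p under 0.05 (3.88%). The libraries labelled IP held a mean of 4.07 M reads in peaks in CON and 4.49 M in OAA, against 20.5 and 20.3 M in those labelled input. How far this depth lowered the agreement between the labels was not tested. Over 14872 peaks at 5 CPM or more in both labels, the differences under the labels correlated with r = 0.067 and had the same sign in 53.8%. Among the 761 of them with an unadjusted p under 0.05 in the libraries labelled input, 62.5% had the same sign. Both labels carry the same replicate numbers, so agreement between them may not be independent. The 3 other peaks of this RNA in the libraries labelled input differed by 0.32 ± 0.15, 0.11 ± 0.13 and -0.31 ± 0.32 on the log2 scale. The peak 0.32 higher lay beside the leading one, at 66867500 to 66867674, and had 12.6, 11.3 and 11.6 CPM in CON against 15.3, 14.9 and 13.9 CPM in OAA.

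The next smallest p went the other way, in a peak listed under IGFBP7, a secreted protein that binds insulin-like growth factors, and POLR2B, a large subunit of RNA polymerase II. The peak, at chromosome 8, 56280819 to 56281343, held 98.4, 106 and 98.3 CPM in CON and 66.0, 79.5 and 67.6 CPM in OAA. The groups did not overlap, and the log2 difference was -0.51 ± 0.09 (SE; edgeR adjusted p = 0.0811; DESeq2 adjusted p = 0.00125). In the libraries labelled IP the difference was -0.27 ± 0.12 (edgeR adjusted p = 0.998). Because the peak touches both genes, its reads cannot be given to one of them. The other 2 peaks shared by these genes differed by -0.11 ± 0.13 and -0.14 ± 0.19, the start codon peak of IGFBP7 alone by 0.11 ± 0.08, and that of POLR2B alone by -0.01 ± 0.18.

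**Figure D2:**
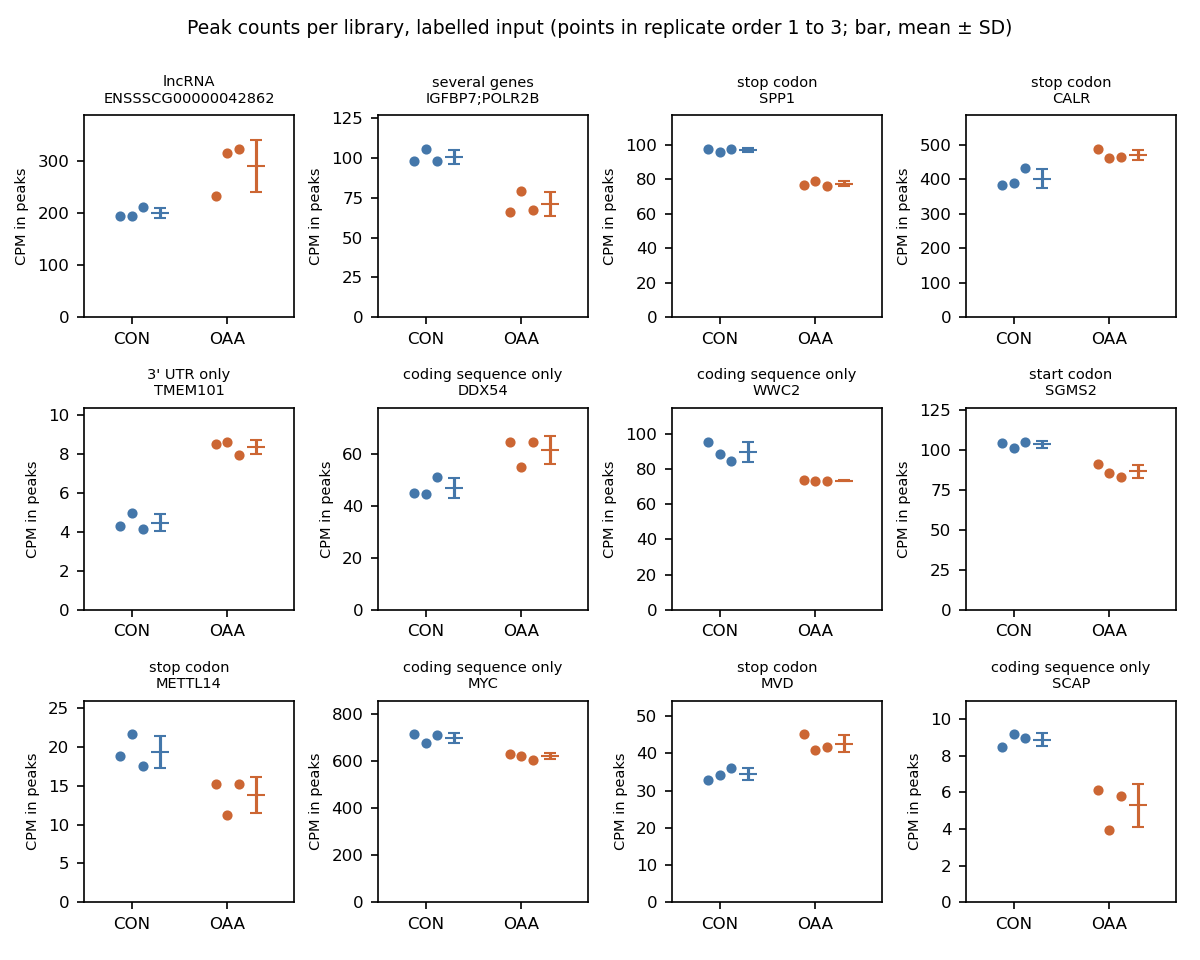
CPM of 12 peaks in the 3 CON and 3 OAA libraries labelled input, with points in replicate order 1 to 3 and the mean ± SD beside them, each axis starting at 0. The groups do not overlap in any of the 12 panels, and none of these peaks passed the edgeR threshold.

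Since fewer than 5 peaks were called, the peaks named next are the 12 with the smallest p in each direction that lie under 1 gene with a symbol and reach 5 CPM in the higher group. None passed. Their unadjusted p ran from 0.000317 to 0.00163 on the higher side and from 0.000284 to 0.00314 on the lower side, and their adjusted p from 0.872 to 0.940. As the smallest p chose them, their sizes are overstated on average and are given as a description. In bulk RNA of this kind, fewer cells of a type and less RNA per cell cannot be told apart.

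CALR was the best covered of the 12 higher peaks. It encodes calreticulin, a calcium-binding chaperone of the endoplasmic reticulum, and its stop codon peak (chromosome 2, 66098650 to 66098999) held 383, 389 and 432 CPM in CON and 488, 460.4 and 464 CPM in OAA. That is 401 ± 26.4 against 471 ± 14.8 CPM, with no overlap and a log2 difference of 0.23 ± 0.06 (SE; edgeR adjusted p = 0.940), and in the libraries labelled IP the difference was 0.15 ± 0.06. The 2 other CALR peaks, at the start codon and in the 5′ UTR, differed by -0.01 ± 0.24 and 0.05 ± 0.13. MOGS, the glucosidase that starts trimming of N-linked glycans, had 2.50, 2.49 and 2.70 CPM in CON and 6.86, 5.34 and 3.67 CPM in OAA at its start codon (1.04 ± 0.29). All 3 OAA values were higher, and they spread more widely than the CON values. WBP1, a WW-domain-binding protein whose start codon peak lies on the same stretch of chromosome 3 (68584104 to 68584579, MOGS at 68578318 to 68578542), had 3.87, 3.89 and 6.37 CPM against 9.35, 7.81 and 8.38 CPM (0.85 ± 0.23).

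PTP4A3, a protein tyrosine phosphatase, had a 5′ UTR peak at 2.46, 3.28 and 3.05 CPM in CON and 5.17, 7.02 and 6.73 CPM in OAA (1.11 ± 0.26). AKT2, a kinase of insulin signalling, had 7.06, 5.28 and 6.93 CPM against 8.55, 11.2 and 13.2 CPM in a coding-sequence peak of 50 bases at chromosome 6, 48562715 to 48562764 (0.76 ± 0.21). Its 4 other peaks lay between 0.07 and 0.31. WDR24, a member of the GATOR complexes that link amino acids to mTOR signalling, had 6.42, 7.41 and 6.80 CPM against 12.0, 12.3 and 10.1 CPM (0.74 ± 0.18). All 3 differences came from peaks with few reads, and the groups stood apart in each. ARHGAP35, a GTPase-activating protein, differed by 0.81 ± 0.22 in its 3′ UTR, from 4.58 ± 0.442 to 8.08 ± 1.11 CPM, and LRRC32, which holds latent TGF-beta at the cell surface, by 0.80 ± 0.20, from 7.07 ± 1.57 to 12.2 ± 2.01 CPM.

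The remaining 4 genes on the higher side were TMEM101, DYNLL2, DDX54 and SLC4A2. The 3′ UTR peak of TMEM101, a membrane protein, was among the least variable, with 4.33, 4.98 and 4.14 CPM in CON and 8.50, 8.65 and 7.97 CPM in OAA (0.91 ± 0.21). DDX54, an RNA helicase, had 44.9, 44.7 and 51.3 CPM against 64.9, 55.3 and 65.0 CPM in a coding-sequence peak (0.39 ± 0.10). DYNLL2, a light chain of the dynein motor, differed by 0.67 ± 0.16 in its 5′ UTR (10.8 ± 1.86 to 17.1 ± 1.46 CPM). SLC4A2, a chloride and bicarbonate exchanger of epithelia, differed by 1.00 ± 0.27 at its start codon (3.39 ± 0.993 to 6.85 ± 1.63 CPM). All 12 genes of the higher side had 3 OAA values above the 3 CON values, which the choice by small p makes likely. In the libraries labelled IP the differences of DYNLL2, WDR24, LRRC32 and PTP4A3 were below 0 (-0.16 to -0.24, none with p under 0.05), that of DDX54 was 0.01 ± 0.08, and SLC4A2 and WBP1 were not tested there.

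SPP1 led the 12 lower peaks by p. It encodes osteopontin, a secreted glycoprotein of matrix and inflammation. At its stop codon (chromosome 8, 131078186 to 131078535) the level was 97.2, 95.7 and 97.5 CPM in CON and 76.4, 78.8 and 76.3 CPM in OAA. The libraries of a group lay far closer to each other than the group means, 96.8 ± 0.990 and 77.2 ± 1.44 CPM. The log2 difference was -0.33 ± 0.08 (SE; edgeR adjusted p = 0.872). The libraries labelled IP gave -0.28 ± 0.10 (edgeR adjusted p = 0.998), from 172, 142 and 132 CPM in CON to 133, 117 and 116 CPM in OAA. The other SPP1 peak, at the start codon, held 2.58 to 4.73 CPM and differed by -0.10 ± 0.30.

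SCAP and SGMS2, which act in lipid metabolism, were also among the lower peaks. SCAP, the cholesterol sensor that escorts SREBP transcription factors, had 8.47, 9.17 and 8.98 CPM in CON and 6.11, 3.96 and 5.80 CPM in OAA in a coding-sequence peak of 75 bases at chromosome 13, 30258636 to 30258710 (-0.75 ± 0.22). The groups were apart in this peak but the other SCAP peaks did not share the direction, with -0.02 ± 0.11 in another coding-sequence peak and 0.28 ± 0.19 at the stop codon. SGMS2, a sphingomyelin synthase, had 104, 101 and 105 CPM against 91.2, 85.7 and 83.2 CPM at its start codon (-0.25 ± 0.08). GPC1, a glypican of the cell surface, had 13.8, 10.3 and 9.85 CPM against 7.70, 6.63 and 7.45 CPM in its 3′ UTR (-0.64 ± 0.19). For SCAP and GPC1 the difference in the libraries labelled IP was above 0 (0.06 ± 0.15 and 0.16 ± 0.13), and the test of the difference between the labels gave an adjusted p of 0.999 for both, where 0 of 24145 peaks (0.0%) passed in edgeR and 1076 (4.46%) had an unadjusted p under 0.05.

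KDM2A, a histone demethylase, had nearly the same level in the 3 CON libraries, 59.6, 60.3 and 59.6 CPM, and 50.3, 48.3 and 47.3 CPM in OAA (-0.30 ± 0.09). BCOR, a transcriptional corepressor, differed by -0.93 ± 0.28 in its 5′ UTR (6.51 ± 1.30 to 3.40 ± 1.11 CPM). WWC2, a scaffold of the Hippo pathway, had 95.8, 88.5 and 84.8 CPM against 73.7, 73.0 and 73.5 CPM (-0.29 ± 0.08), with its 2 other peaks at 0.13 ± 0.21 and 0.19 ± 0.31. In these 3 genes the CON and OAA values stood apart in every library of the peak named. CYFIP2, a subunit of the WAVE complex that drives actin branching, differed by -0.51 ± 0.15, PHLDB2, a protein of the cell cortex, by -0.92 ± 0.26, and TRAF3IP1, a component of intraflagellar transport, by -0.37 ± 0.11. PHLDB2 differed by much the same amount in the libraries labelled IP (-0.89 ± 0.39).

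The groups overlapped in the other 2 lower peaks, CBR1 and env. CBR1, a carbonyl reductase, had 5.28, 19.4 and 16.0 CPM in CON and 9.68, 3.86 and 4.60 CPM in OAA (-1.15 ± 0.34), so the lowest control lay inside the OAA range. Its 2 other peaks differed by -0.07 ± 0.07 and -0.11 ± 0.27. Carbonyl reductase genes have near copies, and the symbol has stop codon peaks at 199606282 and at 199658762 of chromosome 13, so this value is uncertain. The symbol env, a retroviral envelope gene, is carried by 5 gene identifiers with 16 tested peaks, near-identical copies between which reads could be split, so its difference is uncertain. The env peak named here had 16.1, 32.1 and 18.7 CPM against 16.6, 13.4 and 9.05 CPM (-0.77 ± 0.22), and of the 16 peaks 6 lay above 0 and 2 had an unadjusted p under 0.05, with a median of -0.06.

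GPR162, an orphan G protein-coupled receptor, was outside the naming rule for its low level and is named because 1 group held no read. A coding-sequence peak of 125 bases on chromosome 5 (63888722 to 63888846) had 17, 10 and 16 reads in CON and 0 in all 3 OAA libraries. The peak passed the low-count filter through its CON libraries alone and was picked for its empty group, so its size and p are a description. Taking 3 reads over the whole group as the limit that a count of 0 allows, it was at least 14.2-fold lower in OAA (edgeR adjusted p = 0.534). This limit covers counting error only, as do all limits from reads without molecular identifiers.

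The m6A genes and PSMD3 had no called peak. METTL14 had the lowest p of these 6 genes, in its stop codon peak (chromosome 8, 105020731 to 105021005), with 18.8, 21.6 and 17.5 CPM in CON and 15.2, 11.2 and 15.2 CPM in OAA. The groups did not overlap, and the log2 difference was -0.48 ± 0.16 (SE; edgeR adjusted p = 0.940). Its start codon peak stood at 2.32 ± 0.531 and 1.19 ± 0.312 CPM (-0.95 ± 0.43), and its other peaks differed by -0.21 ± 0.24 in the coding sequence and 0.36 ± 0.42 in the 3′ UTR. In the libraries labelled IP the stop codon peak of METTL14 differed by 0.07 ± 0.14. METTL3, its catalytic partner, had 9.56, 9.90 and 11.8 CPM against 13.6, 7.37 and 11.7 CPM in its coding-sequence peak (0.06 ± 0.20), a difference smaller than the spread of the OAA libraries, and 0.16 ± 0.51 at its start codon.

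YTHDF2 and PSMD3, the proteins named in the series title, had overlapping groups in all of their 6 peaks. The largest YTHDF2 peak by level, in the coding sequence (chromosome 6, 85722846 to 85723795), held 468, 499 and 490.1 CPM in CON and 493, 479 and 437 CPM in OAA, a log2 difference of -0.05 with a 95% interval from -0.17 to 0.08. The 3 other YTHDF2 peaks differed by 0.08 ± 0.08, -0.08 ± 0.14 and, at the start codon, 0.19 ± 0.22. For PSMD3 the start codon peak had 59.6, 58.9 and 60.3 CPM against 58.8, 66.5 and 61.5 CPM (0.06, interval -0.12 to 0.24), and the stop codon peak 25.5, 24.6 and 29.6 CPM against 33.5, 28.2 and 31.5 CPM (0.22, interval -0.03 to 0.47). These intervals leave room for small differences in either direction. The eraser FTO had 39.0, 39.3 and 40.0 CPM against 35.8, 37.7 and 28.9 CPM in its main peak (-0.21 ± 0.11), where the groups did not overlap, and 0.698 ± 0.0303 and 1.04 ± 0.684 CPM in the other (0.58 ± 0.59). ALKBH5, the other eraser, differed by 0.07 ± 0.08 at the start codon and 0.12 ± 0.16 at the stop codon.

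**Figure D3:**
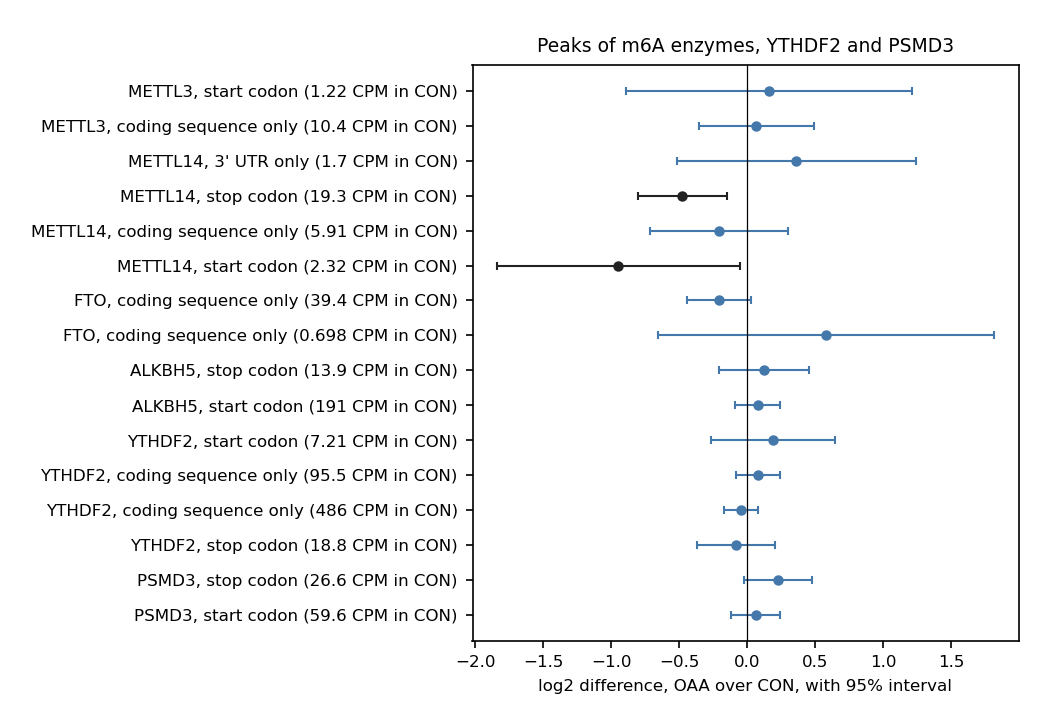
Log2 difference of OAA over CON with its 95% interval for each tested peak of METTL3, METTL14, FTO, ALKBH5, YTHDF2 and PSMD3, with the CON level beside each name. The interval leaves out 0 only for the stop codon and start codon peaks of METTL14 (dark), both lower in OAA.

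The wider m6A and proteasome lists held few peaks past the unadjusted threshold. Of 31 peaks of 9 writers, 1 was higher and 3 were lower at an unadjusted p under 0.05 (12.9% beside 5.2% of all peaks), with a median log2 difference of 0.03. The lower count was 1 without CON library 2 or OAA library 2, and the higher count 2 without CON library 3 or OAA library 3. Beside the METTL14 peaks these were a 3′ UTR peak of METTL16, a methyltransferase acting outside the main complex (-0.77 ± 0.37), and the start codon peak of RBM15B, an adaptor of the writer complex, with 12.6, 13.3 and 16.8 CPM in CON and 18.8, 18.1 and 21.6 CPM in OAA (0.45 ± 0.15). The 4 eraser peaks had 0 in either direction, or 1 lower without OAA library 2 and 1 higher without OAA library 3. Of 24 reader peaks, 0 were higher and 1 was lower (4.17%, beside 2.41% of all peaks), at the start codon of YTHDF1 (-0.79 ± 0.32, from 3.70 ± 0.478 to 2.13 ± 0.232 CPM). The 36 peaks of the proteasome and its assembly factors had 18 above 0, a median of 0.007, 1 higher (PSMD12, 0.45 ± 0.21) and 1 lower (PSMA1, -0.71 ± 0.29). That is 2.78% in each direction, beside 2.79% and 2.41% of all peaks. Without CON library 1, 28 of the 36 lay above 0 with a median of 0.08, and without OAA library 3, 16 did with a median of -0.02.

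Genes of cholesterol synthesis and of triglyceride assembly lay above 0 more often than below, without a called peak. Cholesterol synthesis had 34 tested peaks from 18 genes, with 26 above 0 and a median log2 difference of 0.10, beside 0.003 and 12599 of 24835 over all peaks. At an unadjusted p under 0.05, 3 were higher (8.82%, beside 2.79% of all peaks) and 0 lower. In 8 the OAA values lay above all CON values against 1 below, 26.5% in all beside 11.1% of all peaks. Across the 16 gene lists this share ran from 5.56% in the cell cycle list to these 26.5%. The higher count was 1 without CON library 2, and without CON library 1 it was 4 with 1 lower. With at least 5 CPM in 3 libraries it was 1 of 23 peaks, with 0 lower. Of the 3 higher peaks, that of ACAT2 stood at 0.319 ± 0.0661 CPM in CON and 0.957 ± 0.381 CPM in OAA. It passed the low-count filter through its OAA libraries alone. That of NSDHL stood at 2.53 ± 0.280 and 4.13 ± 1.23 CPM. Per library, set against the CON mean, the list's median was -0.03, -0.02 and 0.05 in CON and 0.09, 0.15 and 0.11 in OAA. Leaving out each library in turn gave medians from 0.08 to 0.13. The list was chosen with earlier results of these data known, so its direction is a description.

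Within that list the clearest separation was in MVD, which makes isopentenyl diphosphate in the mevalonate pathway. Its stop codon peak had 32.8, 34.3 and 36.0 CPM in CON and 45.1, 41.0 and 41.7 CPM in OAA (0.31 ± 0.10, edgeR adjusted p = 0.940). Each OAA value lay above the CON values. At high counts the differences were smaller: MSMO1, a sterol demethylating oxidase, stood at 399.7 ± 12.2 and 422 ± 12.9 CPM (0.08 ± 0.06), SQLE, squalene epoxidase, at 212 ± 9.00 and 221 ± 11.5 CPM (0.06 ± 0.07), and INSIG1, which retains SCAP in the endoplasmic reticulum, at 324 ± 9.31 and 346 ± 16.3 CPM in its main 3′ UTR peak (0.09 ± 0.06). HMGCS1, a synthase of the mevalonate pathway, went the other way in both of its peaks (-0.16 ± 0.09 and -0.16 ± 0.19), and SREBF2, the transcription factor of the pathway, stood at 18.0 ± 0.498 and 18.0 ± 0.914 CPM in its coding sequence.

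Triglyceride assembly and lipid droplet genes had 21 of 27 peaks above 0 and a median of 0.08. At an unadjusted p under 0.05, 1 was higher (3.70%, beside 2.79% of all peaks) and 0 lower. In 2 the OAA values lay above all CON values against 0 below, 7.41% in all beside 11.1% of all peaks. Leaving out 1 library gave 16 to 22 above 0 and 0 to 2 higher peaks, 0 without CON library 1, CON library 2 or OAA library 2. The 1 peak was a 3′ UTR peak of AGPAT3, an acyltransferase of glycerolipid synthesis (0.72 ± 0.33), whose 3 other peaks differed by 0.63, 0.13 and -0.07. GPAM, the mitochondrial acyltransferase that begins the pathway, had a 3′ UTR peak at 6.83, 6.92 and 6.71 CPM in CON and 9.02, 8.46 and 8.43 CPM in OAA (0.34 ± 0.19). The best covered peaks of the list were nearly level: GPAT4 at its start codon stood at 496 ± 9.28 and 506 ± 29.6 CPM, and LPIN2 at its stop codon at 386 ± 13.0 and 389 ± 28.4 CPM. Fatty acid uptake and activation had 10 of 16 peaks above 0 (median 0.13). Only 1 had an unadjusted p under 0.05 (6.25%, beside 5.2% of all peaks), a 5′ UTR peak of ACSL1 with 0.174 to 0.243 CPM in CON and 0.517 to 1.69 CPM in OAA (2.08 ± 0.72). This peak passed the low-count filter through its OAA libraries alone. The 3′ UTR peak of ACSL1, with 109 ± 9.19 and 109 ± 8.16 CPM, did not follow it (0.01 ± 0.08). When only peaks of at least 5 CPM in 3 libraries were kept, the list had 8 peaks, a median of 0.0005 and 0 peaks at an unadjusted p under 0.05.

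Fatty acid synthesis had 16 of 27 peaks above 0 (median 0.04), and fatty acid oxidation and lipolysis 19 of 37 (median 0.03). In edgeR 0 of the synthesis peaks and 2 of the oxidation peaks, both lower (5.41%, beside 2.41% of all peaks), had an unadjusted p under 0.05. Without CON library 1 the synthesis list had 3 higher and the oxidation list 2 higher and 2 lower, and the oxidation list had 0 lower without OAA library 2 and 4 without OAA library 3. Those 2 were in ACADS, the short-chain acyl-CoA dehydrogenase, with 3.96, 5.10 and 3.05 CPM in CON and 3.05, 1.24 and 2.07 CPM in OAA (-0.92 ± 0.35), and in HADH, which acts later in the same cycle, with 2.69, 2.73 and 3.01 CPM against 1.64, 1.29 and 1.60 CPM (-0.89 ± 0.37). The HADH values of the groups stood apart, while in ACADS one CON value met the highest OAA value. In the libraries labelled IP the ACADS peak differed by 0.19 ± 0.24 and the HADH peak by -0.08 ± 0.40. Other ACADS peaks went both ways, from 0.24 to 0.45 and from -0.23 to -0.14 with 1 library left out. Without CON library 1 the median of the oxidation list was -0.02, and without CON library 3 or OAA library 3 that of the synthesis list was -0.02.

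**Figure D4:**
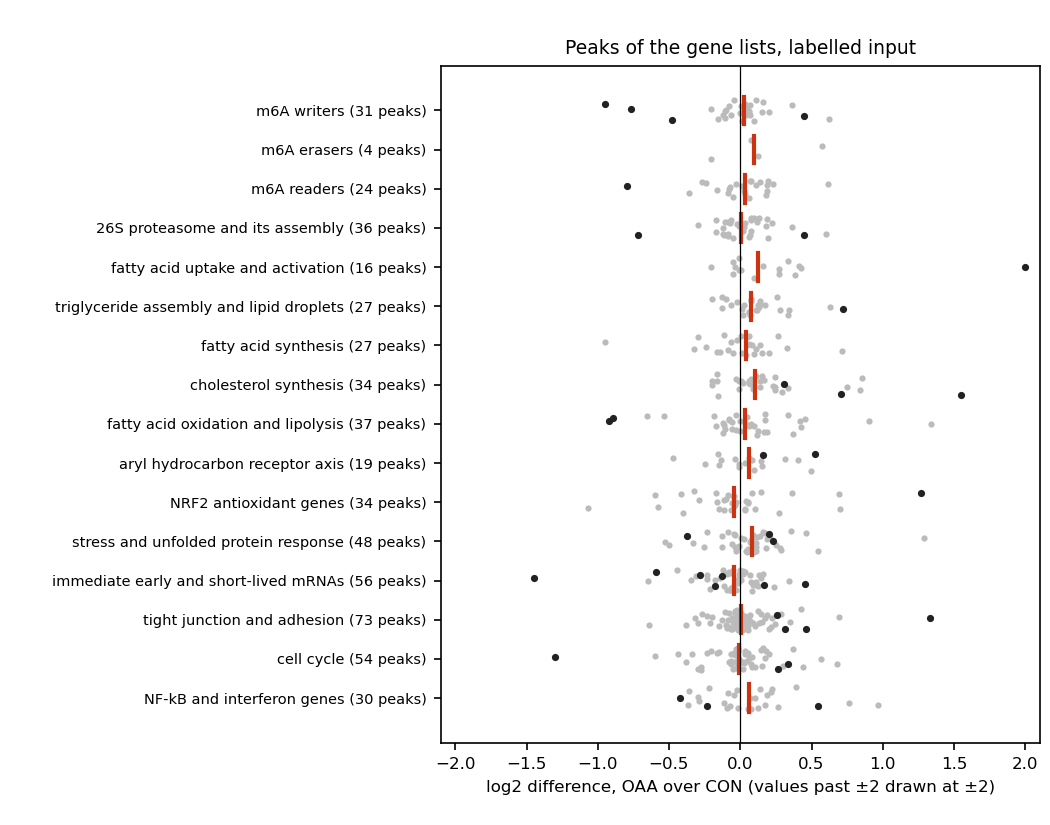
Log2 difference of OAA over CON for the peaks of each of the 16 gene lists, 1 point a peak, dark where the unadjusted p was under 0.05 and with the median as a red bar; values past 2 in size are drawn at 2. The medians lie between -0.05 and 0.13, and that of all peaks is 0.003.

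Chaperone and stress genes also lay more often above 0. The stress and unfolded protein response list had 32 of 48 peaks above 0 and a median of 0.08, with 2 higher (4.17%, beside 2.79% of all peaks), 1 lower (2.08%, beside 2.41%) and 7 peaks whose OAA values all exceeded the CON values against 1 below (16.7% in all, beside 11.1%). The higher count was 4 without CON library 1, OAA library 2 or OAA library 3, and the lower count 0 without any 1 of the libraries but OAA library 3, where it was 2. CALR was described above. CHAC1, a glutathione-degrading enzyme of the ATF4 branch, had 104, 96.1 and 103 CPM in CON and 110.0, 127 and 111 CPM in OAA (0.20 ± 0.08). SESN2, a stress-induced inhibitor of mTOR signalling, went the other way, with 10.7, 10.4 and 10.6 CPM against 7.99, 8.16 and 8.38 CPM (-0.37 ± 0.17). Of the CALR, CHAC1 and SESN2 peaks, only that of SESN2 differed in direction between the labels, with 0.81 ± 0.37 in the libraries labelled IP. Leaving out 1 library gave list medians from 0.06 to 0.09.

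Short-lived transcripts of the immediate early response lay more often below 0. Of 56 peaks from 24 genes, 20 lay above 0, the median was -0.05, and 2 were higher (3.57%, beside 2.79% of all peaks) and 5 lower (8.93%, beside 2.41%) at an unadjusted p under 0.05. The split was level at 4 and 4 without CON library 3 and at 3 and 3 without OAA library 3, and the higher count was 0 without CON library 1, CON library 2 or OAA library 1. MYC, the growth-promoting transcription factor, supplied 3 of the lower peaks, which are all of its own peaks. Its coding-sequence peak (chromosome 4, 12456144 to 12457764) had 714, 675 and 709 CPM in CON and 632, 622 and 607 CPM in OAA (-0.17 ± 0.05, edgeR adjusted p = 0.940). The start codon peak had 65.1, 56.0 and 62.9 CPM against 48.6, 46.8 and 56.0 CPM (-0.28 ± 0.10), and the stop codon peak 1688, 1814 and 1802 CPM against 1610.1, 1728 and 1514 CPM (-0.13 ± 0.05). The groups were apart in the coding sequence, nearly met at the start codon and overlapped at the stop codon. In the libraries labelled IP the 3 MYC peaks differed by -0.12 ± 0.07, -0.17 ± 0.09 and -0.10 ± 0.06, none with p under 0.05. Peaks of 1 gene share transcripts and are not replicates of the treatment.

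FOSL1 and FOSB, subunits of the AP-1 transcription factor, gave the other lower peaks of this list. The FOSL1 start codon peak had 8.42, 11.5 and 8.98 CPM in CON and 8.08, 6.13 and 4.86 CPM in OAA (-0.59 ± 0.22), and that of FOSB stood at 1.76 ± 0.364 and 0.640 ± 0.170 CPM (-1.45 ± 0.51). EGR1, an early zinc finger factor, was higher at its start codon (0.46 ± 0.21) with overlapping groups, and ID1, an inhibitor of differentiation factors, had 92.6, 98.5 and 101 CPM against 109, 103 and 116 CPM (0.17 ± 0.08). ID1 differed by the same 0.17 ± 0.08 in the libraries labelled IP. Without any 1 library the list's median stayed between -0.05 and -0.02.

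Indole compounds are known ligands of the aryl hydrocarbon receptor, whose activity was not tested here. Of the 19 peaks of its list 11 lay above 0 (median 0.06, or -0.001 and -0.02 without CON library 3 and OAA library 2). At an unadjusted p under 0.05, 2 were higher (10.5%, beside 2.79% of all peaks) and 0 lower. The higher count was 0 without CON library 2 or OAA library 1 and 3 without CON library 3. The 2 peaks were in CYP1A1, the classic target gene, with 4.05, 4.07 and 5.62 CPM in CON and 7.09, 6.68 and 6.11 CPM in OAA (0.53 ± 0.23), and TIPARP, a feedback repressor, with 118, 121 and 128 CPM against 139, 129.9 and 139 CPM (0.16 ± 0.07). The other CYP1A1 peak, at the stop codon, differed by 0.40 ± 0.25 with overlapping groups, and the receptor AHR itself by -0.16 ± 0.11 in a coding-sequence peak. A peak of NQO1, also on this list, ranged from -0.22 to -0.04 with 1 library left out. The NRF2 list had a median of -0.05 over 34 peaks. Of 30 NF-kB and interferon peaks 3 had an unadjusted p under 0.05 (10.0%, beside 5.2% of all peaks). ISG15, a ubiquitin-like interferon product, was higher (6.15, 6.19 and 7.19 CPM against 9.49, 8.51 and 10.6 CPM, 0.54 ± 0.19) and TNFAIP3, an inhibitor of NF-kB, was lower in 2 peaks (-0.42 ± 0.17 and -0.24 ± 0.10). Without CON library 2 this list had 3 higher and 1 lower, and without CON library 3, OAA library 1 or OAA library 2 it had 1 lower.

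Tight junction and cell cycle genes centred on 0, with medians of 0.003 over 73 peaks and -0.01 over 54. The junction list had 4 peaks higher (5.48%) and 0 lower at an unadjusted p under 0.05, beside 2.79% and 2.41% of all peaks. Without OAA library 1 the count was 1 higher, without OAA library 3 it was 6, and without CON library 1 it was 3 higher and 2 lower. The 4 were CGN, the junction protein cingulin (25.8, 25.3 and 36.5 CPM in CON, 51.0, 30.2 and 39.2 CPM in OAA, 0.46 ± 0.16, overlapping), DSP, the desmosomal protein desmoplakin, in 2 coding-sequence peaks (0.31 ± 0.12 and 0.26 ± 0.12), and a weak 5′ UTR peak of ITGB4, an integrin of hemidesmosomes. In the libraries labelled IP the DSP peaks differed by -0.06 ± 0.12 and -0.07 ± 0.10. The cell cycle list had 2 higher and 1 lower (3.70% and 1.85%, beside 2.79% and 2.41% of all peaks). These counts were 0 and 3 without CON library 2, 1 and 4 without OAA library 2 and 4 and 1 without CON library 3. PLK1, a mitotic kinase, had 30.3, 32.3 and 35.9 CPM against 38.8, 36.3 and 43.3 CPM (0.27 ± 0.11, and 0.24 ± 0.11 in the libraries labelled IP), and E2F1, a transcription factor of S phase entry, 13.6, 14.5 and 15.5 CPM against 18.2, 18.8 and 17.9 CPM (0.33 ± 0.14). CCNE2, a cyclin of the same step, was lower at its start codon (-1.30 ± 0.46, 2.89 ± 1.44 to 1.18 ± 0.567 CPM).

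By position on the transcript, 3′ UTR and start codon peaks had more higher than lower differences, as all peaks did, and coding-sequence peaks the reverse. At an unadjusted p under 0.05, 106 of 3807 peaks within a 3′ UTR were higher (2.78%) and 59 lower (1.55%). Over all peaks these shares were 2.79% and 2.41%. The higher share of 3′ UTR peaks was thus close to that of all peaks, and only their lower share was smaller. Of 4579 start codon peaks 174 were higher and 105 lower (2.29%), and there the higher share stood above that of all peaks. Of 5453 peaks within coding sequence 125 were higher (2.29%) and 164 lower (3.01%). Stop codon peaks, at 120 and 106 of 5233 (2.29% and 2.03%), and 5′ UTR peaks, at 50 and 50 of 1526 (3.28% each), were nearly balanced. The class medians were small, 0.02 in 3′ UTR, 0.01 at start codons and -0.02 in coding sequence, beside quartiles of all peaks at -0.12 and 0.14. For 3′ UTR peaks the higher count stayed above the lower when any 1 library was left out, from 98 and 54 without OAA library 1 to 116 and 93 without OAA library 3. The start codon split was 132 and 115 without CON library 2 and 134 and 124 without OAA library 1. The coding-sequence split turned to 150 and 128 without OAA library 2 and was level at 167 and 166 without CON library 3.

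**Figure D5:**
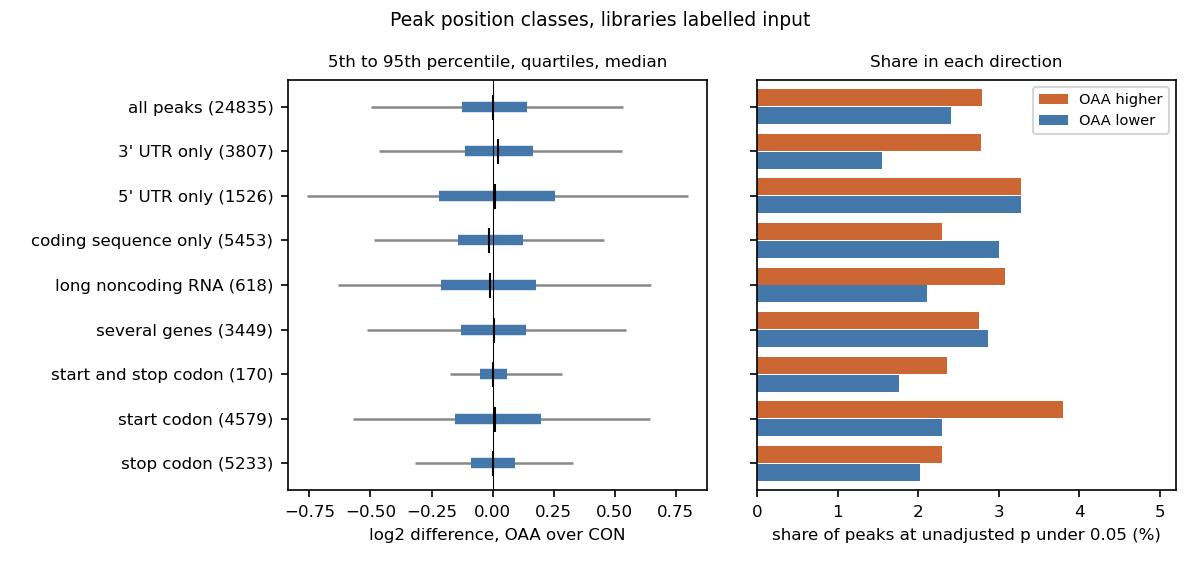
Left, the spread of the log2 difference of OAA over CON in each position class, with the 5th to 95th percentile as a thin line, the quartiles as a thick line and the median as a tick; right, the share of peaks at an unadjusted p under 0.05 in each direction. All medians lie close to 0, and the shares differ most between directions in the 3′ UTR and start codon classes.

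Peaks of the same gene differed only loosely together. Of 3064 genes with at least 3 tested peaks of their own, 685 (22.4%) had all peaks on 1 side of 0, 378 above and 307 below. Among the 1491 genes with exactly 3 such peaks the share was 33.3%. Across 3682 genes whose peaks at 5 CPM or more numbered at least 2, the differences of the first and the second peak by position correlated with r = 0.121 and had the same sign in 56.0%, as a description over peaks that share libraries. SCAP and LRRC32 were among the genes with peaks on both sides of 0.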

How the data were processed

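The authors' deposited table lists, per merged peak, raw counts for every library and a log2 ratio per treatment. A second deposited table holds FPKM per gene, per the file headers, and served for cell type markers alone. The tools named are HISAT2 and Bowtie2, per the submitters' processing notes. What each did, its version, the peak caller and the build were not given in the sources used here. Starts in the table fit 0-based positions and are printed 1-based. Columns of single libraries without a matching sample numbered 0. Symbols came from a reference table for 9738 gene identifiers and from the deposited table alone for 1079, and 605 had none. No sequences were used.

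Counts of the 6 libraries labelled input were compared with edgeR 4.0.16 (TMM, default filter by group, quasi-likelihood F test, no replicate term) in R 4.3.3, and peaks with a Benjamini-Hochberg adjusted p under 0.05 over all tested peaks were called. Errors of log2 differences are standard errors from this fit. Alternatives used DESeq2 1.42.0, limma 3.58.1 (voom), other scaling and filters, a replicate block, and each library left out. The labelled-IP comparison and the test between the labels were fitted the same way and added after the counts had been seen. The method was tested on simulated data.

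Same-numbered CON and OAA libraries did not deviate together (r = -0.02, -0.01 and -0.06), so the numbers were not taken to pair them. The named peaks are the 12 with the smallest p per direction under 1 gene with a symbol and at least 5 CPM in the higher group, all peaks of YTHDF2, PSMD3, METTL3, METTL14, FTO and ALKBH5, up to 2 per direction from each list, the 3 genes per direction with the largest median among those with at least 3 own peaks, all on 1 side of 0, and the other peaks of genes so named. Peaks named for the smallest p of all, for holding reads in 1 group alone, or for being list members at high level were added after their values were seen. The comparison, the 16 gene lists and the markers were chosen with earlier results of these data known. Single peaks of a few list members are not reported here.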

Additional observations from a re-analysis of the deposited data

How the results depend on the processing

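The count of called peaks was 0 in edgeR with TMM and stayed at 0 with DESeq2 size factors, with library size alone, without a filter, with at least 5 CPM in 3 libraries, in limma-voom, with peaks under 1 gene only and with peaks of at most 10000 bp. DESeq2's own test called 2 peaks, the long noncoding RNA ENSSSCG00000042862 (0.53, adjusted p = 0.00239) and the peak of IGFBP7 and POLR2B (-0.51, adjusted p = 0.00125). The replicate block called 1, the long noncoding RNA (0.52, adjusted p = 0.0255). Leaving out each library in turn called from 0 to 1 peak, and the 1 was the long noncoding RNA without OAA library 1 (0.68). The cause was not tested. Peaks at an unadjusted p under 0.05 numbered 1292 and from 1069 to 1703 with 1 library left out, 1127 with the replicate block, 1360 in limma-voom and 741 with at least 5 CPM in 3 libraries, where 15764 peaks were tested. The higher share of these peaks was 53.6%, and from 47.9% without OAA library 3 to 58.4% without CON library 3.

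Of 166 named peaks followed through the settings, 145 kept their direction in every one, among them the 32 chosen for the smallest p. The SMAD5 start codon peak (-0.01) was 0.023 in limma-voom and 0.00056 with the replicate block, and the CALR start codon peak (-0.01) 0.027 and 0.059. The other reversals came with 1 library left out, where the ranges were -0.097 to 0.136 for SMAD5 and -0.279 to 0.276 for CALR at the start codon, -0.0323 to 0.210 for CALR in the 5′ UTR, -0.128 to 0.282 and -0.036 to 0.475 for METTL3 in the coding sequence and at the start codon, -0.011 to 0.372 for YTHDF2 at the start codon, -0.354 to 0.011 for METTL14 in the coding sequence, -0.173 to 0.048 for SLC27A4, -1.05 to 0.101 for pro-pol, -0.011 to 0.115 for the HTRA1 stop codon, -0.011 to 0.251 for the WWC2 5′ UTR, -0.215 to 0.0319 for a CECR2 coding-sequence peak, -0.422 to 0.158 for the CBR1 start codon, -0.209 to 0.181 for the SHARPIN coding sequence, -0.0353 to 0.138 for the TSEN34 stop codon, -0.0546 to 0.179 for the AKT2 stop codon, -0.347 to 0.0922 for the SPP1 start codon, -0.0341 to 0.0858 for the PKDCC coding sequence, -0.0577 to 0.0428 for another SCAP coding-sequence peak, -0.0277 to 0.0106 for the PTK2 3′ UTR and -0.0605 to 0.0856 for the POLR2B start codon. Depth limits the peaks under 1 CPM, whose intervals reached 1.29 to either side in the median.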

Other observations

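In 8 genes at least 3 own peaks had an unadjusted p under 0.05 in edgeR, out of 3064 genes with at least 3 tested peaks of their own. MYC, described above, was among them. No such peak was called (adjusted p = 0.940). WASF3, a member of the WAVE family of actin regulators, had 4 of 6 peaks lower in OAA at that level and all 6 below 0, the best covered at the stop codon with 11.7 ± 1.93 CPM in CON and 8.10 ± 2.21 CPM in OAA (-0.53 ± 0.20). Among the 4 were 5′ UTR peaks at 0.657 and 0.937 CPM in CON against 0.0675 and 0.208 CPM in OAA. These passed the low-count filter through their CON libraries alone. SYTL2, a protein of vesicle docking, had 3 of 8 peaks lower, among them a 5′ UTR peak at 468 ± 34.5 and 419.9 ± 18.5 CPM (-0.16 ± 0.06). TUBB2B, a beta tubulin, had 3 of 6 higher, with a coding-sequence peak at 349 ± 40.2 and 408 ± 45.5 CPM (0.22 ± 0.08, and 0.31 in the libraries labelled IP). Its peaks fall in stretches near 1910585 and 1952681 of chromosome 7, and tubulin genes are near copies of each other, so the assignment is uncertain. RANGAP1, which activates the Ran GTPase, had 3 peaks higher and 1 lower, from 23.7 ± 3.26 to 29.4 ± 3.22 CPM at the stop codon (0.31 ± 0.13) and from 2.27 ± 0.469 to 0.973 ± 0.101 CPM in the 5′ UTR (-1.22 ± 0.44). LRRC32 had 3 of 6 higher, MDC1, a DNA damage mediator, 1 higher and 2 lower of 7, and R3HDM2 all 3 lower. The lower MDC1 peak at the stop codon, at 0.794 CPM in CON and 0.278 CPM in OAA, also passed the filter through CON alone.

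Among genes with a symbol and at least 3 own peaks, all on 1 side of 0, the largest medians were those of MMP28, a secreted metalloproteinase (1.03 over 3 peaks), TSEN34, a subunit of the tRNA splicing endonuclease (0.82 over 3), and MEOX1, a homeobox factor (0.75 over 3), on the higher side, and R3HDM2 (-1.42 over 3), SHARPIN, a subunit of a ubiquitin ligase complex (-1.31 over 3), and PTK2, the focal adhesion kinase (-0.82 over 3), on the lower side. Each of the 6 has peaks with few reads, and in TSEN34, R3HDM2, SHARPIN and PTK2 the best covered peak had the smallest difference. The PTK2 3′ UTR peak had 320.5, 316 and 329 CPM in CON and 319, 331 and 313 CPM in OAA (-0.005 ± 0.060), beside a 5′ UTR peak at 0.901 ± 0.383 and 0.259 ± 0.144 CPM (-1.77 ± 0.68).

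With a limit of 5 CPM on every peak of the gene, added to the rule after the data were seen, the largest medians were those of HTRA1, a secreted serine protease (0.39 over 3 peaks), BTBD2 (0.35 over 3) and PKDCC, a secreted kinase (0.34 over 3), and of ZNF398, a zinc finger protein (-0.45 over 3), SMAD5, a transducer of BMP signals (-0.35 over 3), and CECR2, a chromatin remodelling factor (-0.31 over 4). In all of them but PKDCC the best covered peak had the smallest difference. The HTRA1 stop codon peak had 167, 178 and 194 CPM in CON and 179.9, 205 and 177 CPM in OAA (0.06 ± 0.07), and the ZNF398 stop codon peak 111, 112 and 109 CPM against 108, 109 and 108 CPM (-0.03 ± 0.07). The larger differences sat in peaks with few reads, as in the SMAD5 coding-sequence peak with 4.83, 6.92 and 6.89 CPM against 3.76, 3.07 and 3.93 CPM (-0.79 ± 0.25).

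A few well covered peaks owed their difference to 1 library and were picked out after their values were seen. A peak of a retroviral pro-pol gene on chromosome 9 (138899627 to 138900126) had 1363 CPM in CON library 1 against 395 to 442 CPM in the other 5 (-0.75 ± 0.27, and 0.10 without that library), and copies of such elements share reads. A coding-sequence peak of PLEC, the cytolinker plectin, had 803 CPM in CON library 2 against 427 to 483 CPM in the others (-0.35 ± 0.13, and -0.04 without that library). PPP1R14B, a phosphatase inhibitor, had 160.5 CPM in OAA library 1 against 113 CPM in each of the other OAA libraries and 89.2 to 119 CPM in CON (0.34 ± 0.11, and 0.15 without that library). All 3 have an edgeR adjusted p of 0.940, and why these libraries stood apart was not tested.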
